A study of Mus musculus with 6 samples.

Results

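The BCL2 family genes of the E12.5 mouse testis were examined as a group of 10 genes, Bax, Bak1, Bcl2, Bcl2l1, Mcl1, Bcl2l11, Bbc3, Pmaip1, Bid and Bad. They were taken by gene symbol from a table of 24470 genes, in which each of the 10 had a single entry. All 10 passed the filter on low counts, as did 15577 genes of the table. RNA-seq counts were compared between 3 control testis samples (genotype Ppp1r3c f/f) and 3 conditional knockout (cKO) samples (genotype Sf1-Cre Ppp1r3c f/f), all from E12.5 embryos. Both groups thus carried floxed alleles of Ppp1r3c, which encodes a targeting protein that brings a phosphatase to glycogen and favours its storage, and only the cKO embryos carried Cre. The Cre is a transgene under Nr5a1 (Sf1) sequences, active in somatic gonadal cells including Sertoli cell progenitors, and not in germ cells. The Cre line was kept on a C57BL/6 background, each sample pooled 2 gonadal pairs, and whole testes were sequenced. The comparison asks whether transcripts of the cell death machinery differed between testes with and without Ppp1r3c in these somatic cells.

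BCL2 family proteins decide whether the outer mitochondrial membrane stays intact. BAX and BAK, the effectors, form pores through which cytochrome c escapes and activates caspases, while BCL2, BCL-XL (encoded by Bcl2l1) and MCL1 hold the effectors in check. BH3-only proteins, among them BIM (Bcl2l11), PUMA (Bbc3), NOXA (Pmaip1), BID and BAD, neutralise these guardians or activate the effectors directly. In the fetal gonad, BAX is known to be required for the normal death of surplus or misplaced primordial germ cells, and BCL-XL for the survival of germ cells. Much of the control over the family acts on the proteins, through phosphorylation, cleavage and degradation, which RNA-seq does not measure.

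Bax and Bak1 encode effectors of similar function, and the sequence upstream of their start sites is shown because Bax was the member with the smallest p in every comparison of all 6 samples, while Bak1 was not lower. Both lie on the minus strand of their chromosome. The sequences are the 250 bases before the RefSeq start site, read 5′ to 3′ along the gene in build GRCm38.p6 (mm10), at chr7:45466899-45467148 for Bax and chr17:27028628-27028877 for Bak1. Capitals mark a match to the p53 half-site, which is only a part of the motif bound by the tumour suppressor p53. Bax is a known target of p53, but the search was for single half-sites and not for the full motif.

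Bax: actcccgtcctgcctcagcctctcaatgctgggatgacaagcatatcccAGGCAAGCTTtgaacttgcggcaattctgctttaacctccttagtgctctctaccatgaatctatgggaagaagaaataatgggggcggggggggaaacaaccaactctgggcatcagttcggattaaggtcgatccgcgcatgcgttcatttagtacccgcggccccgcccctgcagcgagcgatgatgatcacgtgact
Bak1: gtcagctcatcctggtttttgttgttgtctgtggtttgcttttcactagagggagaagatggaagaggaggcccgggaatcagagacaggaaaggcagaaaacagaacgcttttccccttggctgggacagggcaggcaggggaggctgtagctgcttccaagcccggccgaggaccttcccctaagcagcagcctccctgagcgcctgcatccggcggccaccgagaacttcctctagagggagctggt

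The half-site pattern reads the same on both strands. Its match upstream of Bax began 201 bases before the start site. RefSeq windows, which also held the 50 bases after the start site, were found for 9 of the 10 members. They came to 15 windows because of alternative start sites, and 1 of them, a window of Bax, held a match. Among 32851 windows of this length from all genes, 8.36% held at least 1 match. The match describes the letters in this window and was not tested for binding.

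Before the members were compared, the libraries were checked. Library totals ranged from 16139487 counts (control replicate 1) to 44145158 counts. The targeted gene Ppp1r3c had a control mean of 23.1 CPM (counts scaled to a common library size) with an SD of 1.19 (n = 3) and a cKO mean of 5.34 CPM with an SD of 0.624 (n = 3), in the direction of the labels. The library labelled cKO replicate 3 stood apart. It held 12534 counts of Xist, a transcript of XX cells, against 6 to 41 counts in the other 5 samples, and 50.9 CPM of Fst, a gene of the fetal ovary, against at most 2.02 CPM in the others. Values without this sample are therefore given beside the main ones. Testis identity was visible from Sertoli cell markers in all samples, whose summed level was 1730 to 2185 CPM in control and 1639 to 2211 CPM in cKO samples.

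No member of the family was called between control and cKO testes by edgeR, and the transcript levels of most members lay within a narrow range. In edgeR's quasi-likelihood test with Benjamini-Hochberg adjustment over all 15577 genes (FDR, called below 0.05), 0 of 10 members were called, where 0.0385% of all genes were. limma-voom also called 0, where it called 0.0449% of all genes. DESeq2, the tool used in the study, called 1, Bax, which was lower in cKO testes. DESeq2 called 0.379% of its tested genes as lower and 0.779% in either direction. At an unadjusted edgeR p under 0.05 there were 3 members, Bax and Pmaip1 lower and Bcl2 higher in cKO testes, where 11.4% of all genes passed, 5.8% lower and 5.56% higher. The median log2 fold change of the 10 members was 0.0021, beside -0.0034 over all genes tested. With 3 samples against 3, the exact permutation test of a single gene cannot give a p under 0.1. Samples are separate pools, but the labels do not say whether embryos came from separate litters.

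**Figure D1:**
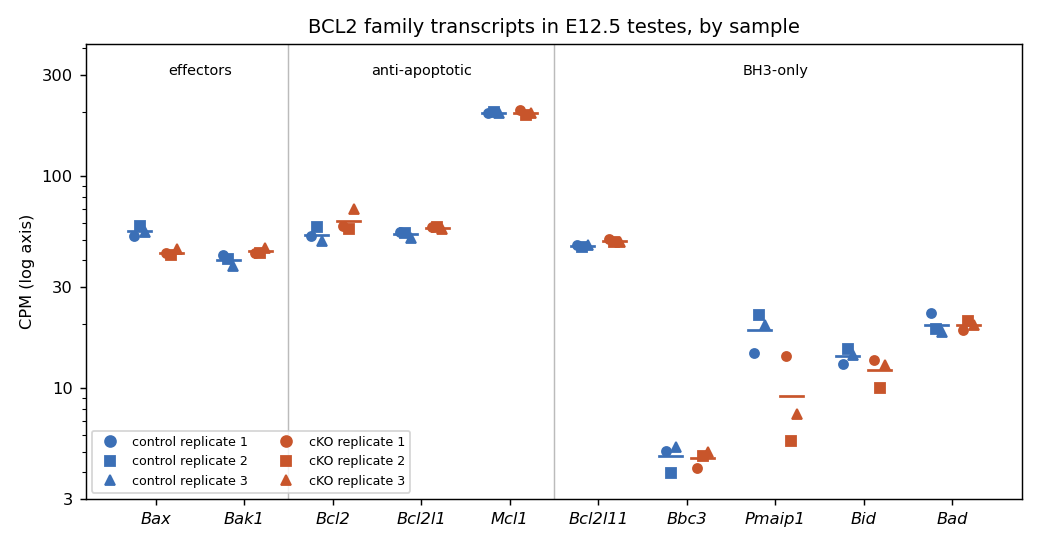
Level of each of the 10 members in every sample, in CPM on a log axis. Blue points are the 3 control and orange points the 3 cKO samples, shapes give the replicate number, and horizontal bars are group means. Bax and Pmaip1 lie lower in all cKO samples, Mcl1 lies near 200 CPM in all 6 samples, and Bcl2 is highest in cKO replicate 3.

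Among the effectors, Bax (Entrez 12028, chromosome 7, 45461695 to 45466898) was lower in cKO testes. Its levels were 52.4, 58.4 and 54.7 CPM in control replicates 1 to 3 and 43.4, 42.3 and 45.1 CPM in cKO replicates 1 to 3. Every cKO sample thus lay below every control sample, by more than the spread within either group. The control mean was 55.2 CPM with an SD of 3.06 (n = 3), and the cKO mean was 43.6 CPM with an SD of 1.42 (n = 3). The log2 fold change was -0.34 ± 0.0659 (SE, p 0.000501, FDR 0.377 by edgeR), a level 0.789 times that of control with a 95% interval of 0.712 to 0.874. By DESeq2 it was -0.34 (SE 0.0807), and the FDR was 0.00922. Without cKO replicate 3 the log2 fold change was -0.37 by edgeR (FDR 0.633) and -0.37 by DESeq2, which then no longer called it (FDR 0.0571) and called 0.0291% of its genes as lower. DESeq2 also did not call Bax without control replicate 2 (FDR 0.138) or cKO replicate 2 (FDR 0.0712), when it called 0.0239% and 0.124% as lower. It called Bax without control replicate 1 (FDR 0.00297) and without cKO replicate 1 (FDR 0.0262), when 1.46% and 1.45% were called as lower, and it gave Bax no adjusted p without control replicate 3. The direction and approximate size of the Bax difference were present in every fit run, with log2 fold changes of -0.38 to -0.30, whereas its call changed between tools and with the samples included.

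Bak1 (Entrez 12018, chromosome 17, 27019812 to 27028626), the other effector, did not share this difference. Its levels were 42.3, 40.4 and 37.7 CPM in control and 43.4, 43.5 and 45.8 CPM in cKO samples. All cKO samples lay above all control samples, by a small margin. The log2 fold change was 0.14 ± 0.0669 (SE, FDR 0.454 by edgeR), with a 95% interval of -0.0081 to 0.29, and it was 0.12 without cKO replicate 3. Ggnbp1 overlaps Bak1 but is read from the opposite strand, from which the stranded counting separates it.

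The anti-apoptotic members were at or slightly above their control level. Mcl1 (Entrez 17210, chromosome 3, 95658721 to 95663179), whose short-lived protein guards both effectors, was the most abundant member by counts. Its levels were 198, 201 and 198 CPM in control and 205, 195 and 199 CPM in cKO samples. These values overlapped, and the 95% interval of the log2 fold change, -0.10 to 0.11, was the narrowest of the family. Larger changes of Mcl1 in either direction lay outside this interval.

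Bcl2l1 (Entrez 12048, chromosome 2, 152758732 to 152831728) was at 54.5, 53.9 and 51.2 CPM in control and 57.5, 57.3 and 56.5 CPM in cKO samples. The groups did not overlap, and the log2 fold change was 0.10 ± 0.0584 (SE, FDR 0.524 by edgeR). Bcl2 (Entrez 12043, chromosome 1, 106538176 to 106714290), the founding member of the family, was at 51.9, 57.2 and 49.2 CPM in control and 58.3, 56.3 and 69.7 CPM in cKO samples. Control replicate 2 lay above cKO replicate 2, so the groups overlapped, and the highest value was that of the sample with Xist. The log2 fold change of Bcl2 was 0.22 ± 0.0939 (SE, p 0.0453, FDR 0.434 by edgeR), and it was 0.12 (p 0.190, FDR 0.745) without cKO replicate 3. In that library the summed level of 6 pre-granulosa markers was 268 CPM, against 82.8 to 100.2 CPM in the other 5 samples, and the part of XX tissue in the Bcl2 value was not tested.

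Among the BH3-only members, Pmaip1 (Entrez 58801, chromosome 18), which encodes the MCL1 antagonist NOXA, had the largest log2 fold change in size of the 10 members. Its levels were 14.6, 22.1 and 19.9 CPM in control and 14.2, 5.64 and 7.56 CPM in cKO samples. In counts these were 237, 975 and 816 against 571, 203 and 250. cKO replicate 1 lay just below control replicate 1, and the other cKO samples lay far below all control samples. The control mean was 18.9 CPM with an SD of 3.85 (n = 3), and the cKO mean was 9.15 CPM with an SD of 4.51 (n = 3). The log2 fold change was -1.05 ± 0.294 (SE, p 0.00567, FDR 0.377 by edgeR), with a 95% interval of -1.71 to -0.39. It was -0.93 (FDR 0.633) without cKO replicate 3 and -0.80 (FDR 0.427) without cKO replicate 2. Without cKO replicate 1 it was -1.53, and Pmaip1 was then called by edgeR (FDR 0.0434), where 0.0191% of all genes were called as lower, and by DESeq2 (FDR 5.44e-10), where 1.45% were. With all 6 samples DESeq2 did not call it (FDR 0.272).

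Bid (Entrez 12122, chromosome 6, 120893119 to 120916820), whose protein links caspase-8 to mitochondria, was at 12.99, 15.3 and 14.4 CPM in control and 13.6, 10.01 and 12.8 CPM in cKO samples. The groups overlapped, and the lowest value was again that of cKO replicate 2. The log2 fold change was -0.24 ± 0.129 (SE, FDR 0.509 by edgeR), with a 95% interval of -0.53 to 0.053. Without cKO replicate 3 it was -0.28 (FDR 0.688), and the part of germ cell content was not tested.

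The other BH3-only members lay close to their control level, with log2 fold changes between -0.03 and 0.07. Bcl2l11 (Entrez 12125, chromosome 2, 128126038 to 128162547), which encodes BIM, an activator induced when growth factors are withdrawn, was at 47.1, 46.3 and 47.5 CPM in control and 50.4, 48.7 and 48.7 CPM in cKO samples. The cKO values lay above the control values by a small margin, with a log2 fold change of 0.07 ± 0.0577 (SE, FDR 0.667 by edgeR) and a 95% interval of -0.060 to 0.20. Bbc3 (Entrez 170770, chromosome 7, 16309583 to 16318334), a p53 target that encodes PUMA, was at 5.05, 3.98 and 5.29 CPM in control and 4.19, 4.78 and 5.02 CPM in cKO samples. With 82 to 217 counts per sample it was the least covered member, and the 95% interval of its log2 fold change was -0.40 to 0.34. Bad (Entrez 12015, chromosome 19, 6941861 to 6951905), which encodes a BCL2 and BCL-XL antagonist held inactive by survival kinases, was at 22.5, 18.9 and 18.3 CPM in control and 18.8, 20.8 and 19.8 CPM in cKO samples. Its groups overlapped and its log2 fold change was 0.0003 ± 0.0961 (SE, FDR 0.999 by edgeR). Gpr137 overlaps Bad on the other strand, which the strand-specific counting separates.

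**Figure D2:**
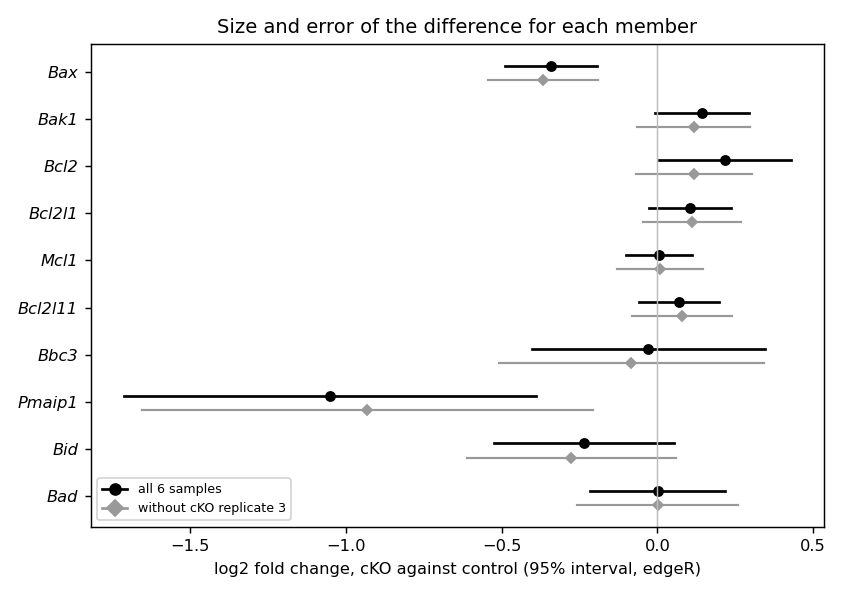
Log2 fold change of each member in cKO against control testes with its 95% interval from edgeR, for all 6 samples (black) and without cKO replicate 3 (grey). The black intervals of Bax and Pmaip1 lie below 0, that of Bcl2 just above 0 from 0.0056 to 0.43, and those of the other 7 members include 0.

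Of the 10 members, 5 had groups that did not overlap, 3 higher and 2 lower in cKO testes. Over all genes tested the groups did not overlap for 15.6%, with 8.42% higher and 7.18% lower. The 3 higher members were Bak1, Bcl2l1 and Bcl2l11, each by a log2 fold change of at most 0.14, and the 2 lower members were Bax and Pmaip1. By role, the upper bounds of the 95% intervals of the 7 pro-apoptotic members were 0.874 times control for Bax, 0.764 for Pmaip1, 1.04 for Bid, 1.148 for Bcl2l11, 1.16 for Bad, 1.22 for Bak1 and 1.27 for Bbc3. A rise of any of these transcripts above these bounds in the whole testis lay outside the intervals. The bounds are for whole tissue and set no limit on the level within a single cell type. The intervals are those of all 6 samples, hold for each gene separately and are not adjusted for their number. Without cKO replicate 3 these upper bounds differed, most for Pmaip1, whose bound as log2 fold change was -0.21 in place of -0.39. The lower bounds of the anti-apoptotic members were 0.932 times control for Mcl1, 0.981 for Bcl2l1 and 1.004 for Bcl2. The Bcl2 bound rests on cKO replicate 3, without which the 95% interval of its log2 fold change was -0.069 to 0.30 and included 0.

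The samples also differed in germ cell transcripts, and in whole tissue fewer cells of a type and less RNA per cell cannot be told apart. Of 16 germ cell markers 15 were tested. All 15 had a negative log2 fold change in cKO testes, with a median of -0.84, and 13 passed an unadjusted edgeR p under 0.05. edgeR called 0 of them and DESeq2 called 3. Their summed level was 542 to 877 CPM in control and 262 to 563 CPM in cKO samples, so the groups overlapped. Expressed as the mean difference from the control mean on the log2 CPM scale, the germ cell level was -0.45, 0.22 and 0.23 in control replicates 1 to 3 and -0.37, -1.29 and -0.67 in cKO replicates 1 to 3.

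Pmaip1, Bid and the germ cell markers placed the samples in nearly the same order. On the same scale Pmaip1 was at -0.35, 0.25 and 0.10 in control and at -0.38, -1.71 and -1.29 in cKO samples. Bid was at -0.13, 0.11 and 0.018 in control and at -0.065, -0.50 and -0.15 in cKO samples. Each measure was lowest in cKO replicate 2 and next in cKO replicate 3. In each, control replicate 1 and cKO replicate 1 came next in the order. As a share of the summed CPM of the tested germ cell markers, Pmaip1 was 2.69%, 2.63% and 2.27% in control samples. In cKO samples it was 2.53%, 2.16% and 1.79%, and these ranges overlapped. For Bid the share was 2.40%, 1.83% and 1.64% in control and 2.41%, 3.82% and 3.03% in cKO samples. These did not overlap, but control replicate 1 and cKO replicate 1 were nearly equal. For Bax the share was 9.66%, 6.97% and 6.24% in control and 7.72%, 16.1% and 10.7% in cKO samples, with overlap. The germ cell sum was itself lowest in cKO replicates 2 and 3, so a share can be higher there without a higher level of the gene. The part of germ cell content in the Pmaip1 and Bid differences was not tested.

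Bax followed this order only in part. It was also lowest in cKO replicate 2, and control replicate 1 was the lowest control sample. However, cKO replicate 1 lay below cKO replicate 3 and below all control samples. On the same scale it was at -0.074, 0.084 and -0.011 in control and at -0.34, -0.38 and -0.29 in cKO samples. Between control replicate 1 and cKO replicate 1, whose germ cell levels were -0.45 and -0.37, Bax was at 52.4 and 43.4 CPM, while Pmaip1 was at 14.6 and 14.2 CPM and Bid at 12.99 and 13.6 CPM. These are values of single samples, and the part of germ cell content in the Bax difference was not tested.

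**Figure D3:**
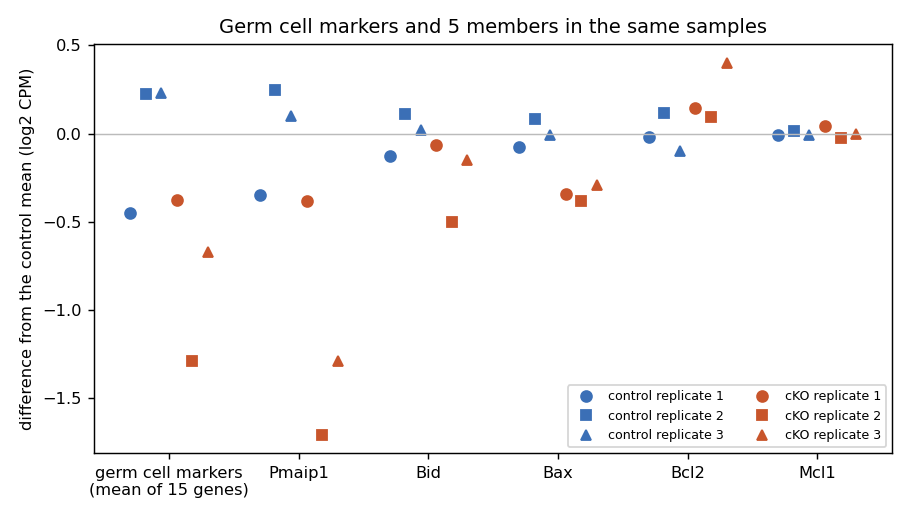
Difference of each sample from the control mean on the log2 CPM scale, for the mean of 15 germ cell markers and for 5 members. Each point is a sample, coloured by group and shaped by replicate. Pmaip1 and Bid are lowest in cKO replicates 2 and 3, where germ cell markers are also lowest. Bax lies between -0.38 and -0.29 in all 3 cKO samples.

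Other cell types that the dissection could hold were examined in the same way. The summed level of macrophage markers was 43.0 to 48.7 CPM in control and 45.3 to 47.7 CPM in cKO samples, and that of endothelial markers 523 to 579 against 514 to 590 CPM. Erythroid markers summed to 2643 to 3321 CPM in control and 2312 to 2981 CPM in cKO samples, fetal Leydig cell markers to 262 to 452 against 183 to 387 CPM, and mesonephros markers to 21.05 to 27.6 against 18.1 to 28.0 CPM. The ranges of these sums overlapped for all 5 lists, and no gene of these lists was at 0 in every sample. Single markers differed more than the sums. Of 4 tested mesonephros markers, Pax2 (0.78 as log2 fold change) and Pax8 (0.52) were higher in cKO testes with groups that did not overlap and an unadjusted edgeR p under 0.05, and the median of the 4 was 0.52, or 0.43 without cKO replicate 3. The same held for the macrophage marker Mrc1 (0.29), and the endothelial marker Pecam1 was lower (-0.19, edgeR p 0.00577). These 4 genes were named after their values were seen, and edgeR and DESeq2 called 0 of them. Other markers of the same lists went the other way. Of 7 macrophage markers 1 was higher and 6 were lower, with a median of -0.050. Of 5 endothelial markers 2 were higher and 3 lower, with a median of -0.0042. Of the 4 mesonephros markers 3 were higher and 1 was lower, at -0.78. The part of all these markers in the differences between members was not tested.

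Levels were next compared between genes, for which counts were divided by transcript length (RPKM, the CPM divided by the length in kilobases). Bax, the shortest of the 10 transcripts with 867 bases, stood first in control testes at 63.6 ± 3.53 RPKM (SD, n = 3), followed by Mcl1 at 58.2 ± 0.604 RPKM (SD, n = 3). Bcl2l1 (19.7 RPKM), Bak1 (16.8 RPKM) and Bad (12.6 RPKM) came next, each with control values above those of the following member. This part of the order depends on the transcripts that set the length. Over all basic transcripts the control means were 13.7 RPKM for Bcl2l1, 16.8 RPKM for Bak1 and 8.32 RPKM for Bad, so that Bak1 stood above Bcl2l1. Pmaip1 (6.91 RPKM), Bcl2l11 (6.81 RPKM), Bid (6.498 RPKM) and Bcl2 (5.77 RPKM) followed, and neighbours in this part of the order overlapped between control samples. Bbc3 was lowest at 2.63 RPKM. Bcl2, with a level by CPM like that of Bcl2l1, thus ranked far below it per length, since its exons span 9157 bases.

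In cKO testes this order differed in its first places and around Pmaip1. Mcl1 came first at 58.4 ± 1.43 RPKM (SD, n = 3) and Bax second at 50.3 ± 1.64 RPKM (SD, n = 3). In each control sample Bax exceeded Mcl1, with ratios of 1.04, 1.14 and 1.09. In each cKO sample it lay below, with ratios of 0.836, 0.854 and 0.895. The lengths were not corrected for fragment size, so which of these 2 genes stands first depends on the lengths used. Pmaip1 moved from the sixth to the ninth place at 3.35 RPKM. With the same lengths, Bcl2l1, Bak1 and Bad again took places 3 to 5 and Bbc3 place 10, although Pmaip1 and Bbc3 overlapped between cKO samples. Among 21174 genes with a length, 5.28% had a higher mean RPKM than Mcl1 over all samples, 5.45% than Bax and 50.6% than Bbc3.

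The balance between pro- and anti-apoptotic transcripts is often read from the ratio of Bax to Bcl2. Per length, this ratio was 10.6, 10.8 and 11.7 in control and 7.87, 7.93 and 6.83 in cKO samples. The groups did not overlap, with means of 11.1 ± 0.594 (SD, n = 3) and 7.55 ± 0.616 (SD, n = 3), and 7.90 for cKO replicates 1 and 2 alone. The ratio of Bax to Bak1 was 3.41, 3.98 and 3.99 in control and 2.76, 2.67 and 2.71 in cKO samples. The ratio of Bax to Bcl2l1 was 2.99, 3.37 and 3.33 against 2.35, 2.30 and 2.48.

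The members were also summed by role. The effectors summed to 78.2, 84.3 and 78.9 RPKM in control and 68.3, 67.0 and 71.2 RPKM in cKO samples. The anti-apoptotic members summed to 83.8, 85.1 and 82.1 RPKM in control and 87.6, 84.5 and 86.7 RPKM in cKO samples, and these overlapped. The BH3-only members summed to 35.2, 36.0 and 35.3 RPKM in control and 32.9, 29.5 and 31.0 RPKM in cKO samples. These ratios and sums are descriptions of the members already given and were not tested.

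**Figure D4:**
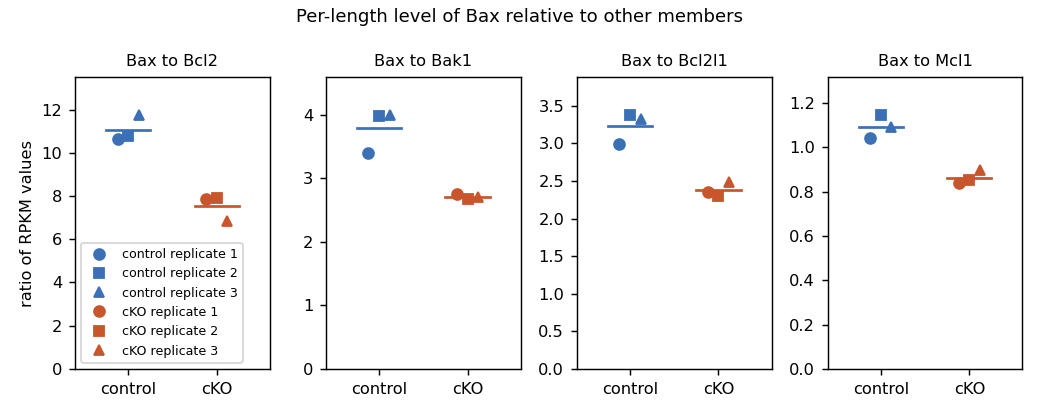
Ratio of the per-length level (RPKM) of Bax to those of Bcl2, Bak1, Bcl2l1 and Mcl1 in each sample, with group means as bars and axes from 0. In all 4 panels the 3 cKO samples lie below the 3 control samples. The panels share the Bax values, whose groups did not overlap, and are not separate observations.

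The rest of the apoptotic pathway was examined through 7 lists holding 101 genes, of which 100 were in the table and 91 were tested. edgeR called 0 of these 91 genes, and DESeq2 on all 6 samples called 0. At an unadjusted edgeR p under 0.05 there were 8 genes, 4 higher and 4 lower, or 8.79%, where 11.4% of all genes passed. The median log2 fold change was 0.0028, beside -0.0034 over all genes tested.

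Among other BCL2 family genes, 12 of 17 were tested and 0 had an unadjusted p under 0.05. Bcl2l13, which encodes a mitochondrial family member with a role in mitophagy, had the lowest p, with 106, 106 and 108 CPM in control and 113, 116 and 113 CPM in cKO samples (0.10 ± 0.0491 as log2 fold change and SE, FDR 0.486 by edgeR). Bmf, a BH3-only gene, had a log2 fold change of -0.13 ± 0.0765 (SE, FDR 0.533 by edgeR), and its values overlapped between groups. Bcl2l14, of very low level, was at 0.185, 0.339 and 0.366 CPM in control and 0.748, 0.500 and 0.333 CPM in cKO samples, and these values overlapped. Bcl2a1a was listed at 0 counts in every sample, and Bcl2a1b, Bcl2a1d, Bcl2l10 and Hrk did not pass the filter. The Bcl2a1 genes are near-identical copies, so their counts are uncertain.

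In the p53 pathway all 20 genes were tested, 6 with a higher and 14 with a lower level in cKO testes. Trp53, which encodes p53, was at 169, 182 and 161 CPM in control and 173, 155 and 172 CPM in cKO samples, and its log2 fold change was -0.04 ± 0.0651 (SE, FDR 0.870 by edgeR). Mdm2, a p53 target whose product degrades p53, was the only gene of this list with an unadjusted p under 0.05. Its levels were 69.5, 73.7 and 77.0 CPM in control and 68.4, 57.9 and 59.4 CPM in cKO samples, so all cKO samples lay below all control samples (-0.25 ± 0.0784 as log2 fold change and SE, FDR 0.377 by edgeR). Cdkn1a, the p53 target that encodes the cell cycle inhibitor p21, was at 11.8, 13.5 and 10.3 CPM in control and 12.2, 8.31 and 17.99 CPM in cKO samples. Its values overlapped, the highest was that of the sample with Xist, and the log2 fold change turned from 0.11 to -0.20 without that sample. Sesn2 (-0.18) and Mdm4 (-0.14) followed Mdm2 in p, with FDR values of 0.467 and 0.516 by edgeR.

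All 19 genes for caspases, the apoptosome and their inhibitors were tested. Apaf1, the scaffold of the apoptosome, had a log2 fold change of -0.03 ± 0.0622 (SE, FDR 0.866 by edgeR). Casp9, which it activates, had 0.07 ± 0.0611 (SE, FDR 0.684 by edgeR). Birc5 (-0.14) and Aifm1 (-0.12) had edgeR FDR values of 0.464 and 0.501.

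In death receptor signalling, 10 of 12 genes were tested and 0 had an unadjusted p under 0.05. The lowest p values were those of the receptor gene Tnfrsf1a, with a log2 fold change of 0.12 ± 0.0611 (SE, FDR 0.473 by edgeR), and of the adaptor genes Fadd (0.14, edgeR FDR 0.563) and Tradd (0.21, edgeR FDR 0.648). The ligand genes Fasl and Tnf did not pass the filter.

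Among 11 transcriptional and stress regulators of BH3-only genes, 2 had an unadjusted p under 0.05, both lower in cKO testes. E2f1, which drives cell cycle genes and can induce BH3-only genes, was at 50.04, 52.7 and 54.3 CPM in control and 46.3, 44.7 and 46.4 CPM in cKO samples (-0.19 ± 0.0612 as log2 fold change and SE, FDR 0.377 by edgeR). Foxo1, a factor restrained by insulin and growth factor signalling, was at 77.74, 84.8 and 89.3 CPM in control and 77.67, 67.8 and 70.8 CPM in cKO samples (-0.22 ± 0.0748 as log2 fold change and SE, FDR 0.377 by edgeR). For both genes each cKO sample lay below each control sample, with nearly equal Foxo1 values in the replicates numbered 1. Trib3, a target of the integrated stress response, had a log2 fold change of -0.41 ± 0.203 (SE, FDR 0.470 by edgeR).

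Of 9 tested genes for partners and turnover of the members, 2 had an unadjusted p under 0.05, both higher in cKO testes. Vdac1, which encodes a channel of the outer mitochondrial membrane, was at 274, 276 and 289 CPM in control and 313, 304 and 322 CPM in cKO samples (0.16 ± 0.0504 as log2 fold change and SE, FDR 0.377 by edgeR). Ywhaz, a 14-3-3 gene whose protein sequesters phosphorylated BAD, was at 340, 347 and 366 CPM in control and 390, 385 and 382 CPM in cKO samples (0.14 ± 0.0499 as log2 fold change and SE, FDR 0.384 by edgeR). In both genes the groups did not overlap. Fbxw7, a ubiquitin ligase gene that promotes MCL1 turnover, had a log2 fold change of -0.17 ± 0.0791 (SE, FDR 0.447 by edgeR).

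Of 12 tested genes for the clearance of dying cells, 2 had an unadjusted p under 0.05, both higher in cKO testes. Axl, a receptor for apoptotic cells, was at 582, 530 and 546 CPM in control and 623, 637 and 598 CPM in cKO samples (0.16 ± 0.0560 as log2 fold change and SE, FDR 0.380 by edgeR). Gas6, its ligand, was at 151.3, 134 and 114 CPM in control and 140, 153 and 198 CPM in cKO samples (0.30 ± 0.134 as log2 fold change and SE, FDR 0.439 by edgeR), and these values overlapped. The Gas6 value was highest in the sample with Xist, and its log2 fold change was 0.14 without that sample. Elmo1, an engulfment gene, had a log2 fold change of -0.17 ± 0.0784 (SE, FDR 0.442 by edgeR).

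**Figure D5:**
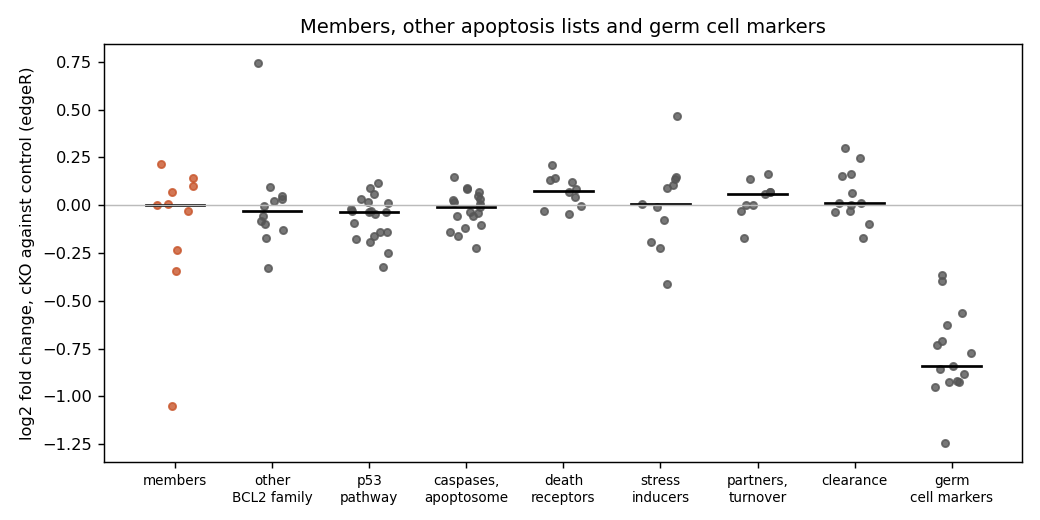
Log2 fold change in cKO against control testes by edgeR for each tested gene of the family (orange), of the 7 other apoptosis lists and of the germ cell markers (grey). Each point is a gene, spread sideways for legibility, and bars are list medians. The medians of the apoptosis lists lie between -0.034 and 0.075, that of the members is 0.0021, and that of the germ cell markers is -0.84.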

How the data were processed

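Whole testes of 3 control and 3 cKO samples were profiled by stranded, poly(A)-selected RNA-seq. The authors deposited raw counts of read pairs per gene, obtained by mapping to mm10 with STAR and counting reverse-stranded pairs over RefSeq Curated gene models with featureCounts (Subread), as the labels and methods state. Coordinates are the mm10 coordinates of that table. All 6 columns were used. Groups and replicate numbers came from the sample titles.

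Genes were filtered with filterByExpr (minimum count 10), scaled with TMM factors, and compared with edgeR (version 4.0.16, R 4.3.3) by the quasi-likelihood F-test on all 6 samples without covariates. Standard errors came from the F statistic and 95% intervals from the t distribution. Log2 CPM used a prior count of 2. Lengths for RPKM were exon unions of GENCODE M21 basic transcripts with a RefSeq match (GRCm38), not the authors' gene models, and 86.5% of genes had one. The fits were tested on simulated data. RefSeq promoter windows were searched for the p53 half-site.

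The members and gene lists were chosen with earlier results of these data known, so no list was tested as a set. March5 was not matched under that symbol, but Marchf5 was. The text names all members, Trp53, Mdm2, Cdkn1a, Casp9, Apaf1, and the genes called or of the 3 lowest p in each list, with Xist, Fst and Ppp1r3c as checks. Some genes that this rule names are not reported here. Other list genes are named only as not passing the filter or overlapping a member. Alternatives were DESeq2 (1.42.0), limma-voom (limma 3.58.1), RLE size factors, 2 other filters, the replicate number as a block, thinned libraries, and leaving out each sample. DESeq2 without each sample was added after the data were seen.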

Additional observations from a re-analysis of the deposited data

How the results depend on the processing

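edgeR called 0 members in every alternative except without cKO replicate 1, where it called 1 lower, Pmaip1. DESeq2 called 1 member lower, Bax, on all 6 samples. Without single samples the 2 tools called 0 to 2 members lower, and no fit called a member higher. Bax, Pmaip1 and Bid were lower, and Bak1, Bcl2, Bcl2l1 and Bcl2l11 higher, in all fits run. Values near 0 changed sign without single samples, and no direction is read from them: Mcl1 (-0.0151 to 0.0210), Bbc3 (-0.16 to 0.0703) and Bad (-0.0629 to 0.0929), the last also with the replicate block (-0.000111). The median over the members was 0.0178 with limma-voom and -0.0199 to 0.0473 without single samples. The cause was not tested.

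Over all genes edgeR called 5 higher and 1 lower. DESeq2 called 57 and 54, the stricter filter 3 higher, and limma-voom and no filter 2 lower each. Without single samples the 2 tools called 1 to 100 genes higher and 1 to 213 lower. Of the other apoptosis lists, DESeq2 without single samples called 0 to 1 gene: Axl without control replicate 1, Vdac1 without control replicate 3 and Mdm2 without cKO replicate 1. In the fit lacking control replicate 3 only 1604 genes had an adjusted p from DESeq2.

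Samples of the same replicate number deviated from their group means with correlations of -0.20, -0.27 and -0.13 across genes. These values gave no sign of pairing by number. With 3 samples per group they cannot exclude a shared litter or day. With the replicate block edgeR called 2 genes higher, and 0 members. Bbc3 had the fewest counts, 82 to 217 per sample. Thinned libraries left 0 members called.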
